A study of Mus musculus with 4 samples.

Results

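This section describes 10 genes of lipoprotein assembly in mouse liver cell lines: the apolipoprotein genes Apob, Apoa1, Apoa2, Apoa4, Apoc3, Apoe, Apoh and Apom, the lipid transfer protein gene Mttp and the hepatic lipase gene Lipc. Every probe set whose platform annotation gave a single symbol equal to one of these genes was taken, which gave 17 of 45037 probe sets and 9 of the 10 genes. Lipc had no probe set named here and was not analysed here. The data are 4 Affymetrix Mouse430_2 arrays of total RNA. The line MMH-D3, which the series presents as hepatocytic and differentiated, has 2 arrays, and 2 resident liver stem cell (RLSC) lines have 1 array each. MetE14/3 came from clone B2 of cultured cyto-Met transgenic embryo liver (cyto-Met is a truncated form of the Met receptor), and WTE14/1 from wild-type embryo liver, both at 14 days post coitum. RLSC colonies were selected for palmate morphology and frozen after about 50 generations. Primary cultures of all lines received epidermal growth factor, insulin-like growth factor II and insulin, and the RLSC colonies were then expanded in basal medium with serum. The labels give neither the genotype and age of origin of MMH-D3 nor the promoter of the transgene. Each RLSC line is 1 line on 1 array, and the source name of WTE14/1 reads WT E14/3, so the title was used. Whether the MMH-D3 arrays hold separate cultures is not stated. The p-values therefore speak only of the scatter among these samples, which may be technical.

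Hepatocytes and enterocytes package triglyceride and cholesterol into lipoproteins. Apolipoprotein B forms the backbone of very low density lipoproteins and chylomicrons, and the microsomal triglyceride transfer protein encoded by Mttp loads it with lipid in the endoplasmic reticulum. Apolipoproteins A-I and A-II are the main proteins of high density lipoprotein, and apolipoproteins C-III and E move between particles and govern their clearance.

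Apob and Apoa1 had the widest differences between the groups, so their promoters are shown here. The RefSeq promoter table (build GRCm38.p6) held 13 windows for 9 of the 10 genes, each of 300 bases, from 250 before to 50 after the annotated start. Short motifs were searched on both strands, and no matches overlapped in the windows shown. The letters were TATAAA, the TATA box, AGGTCA, a repeat unit of nuclear receptor sites, GTCCAAAG, letters found in HNF4-type sites, TGTTTAC, a forkhead motif, and TTGCGCAA, a C/EBP palindrome. They occurred in 13.6%, 16.3%, 0.962%, 3.65% and 0.183% of the 32851 windows in the table. Capitals mark matches.
Apob, chr12:7977427-7977726, plus strand: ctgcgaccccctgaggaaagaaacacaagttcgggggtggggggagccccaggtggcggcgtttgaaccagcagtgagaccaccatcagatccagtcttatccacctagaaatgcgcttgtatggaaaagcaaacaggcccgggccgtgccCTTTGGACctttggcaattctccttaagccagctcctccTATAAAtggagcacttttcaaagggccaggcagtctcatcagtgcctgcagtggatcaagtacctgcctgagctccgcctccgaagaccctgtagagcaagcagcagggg
Apoa1, chr9:46228380-46228679, plus strand: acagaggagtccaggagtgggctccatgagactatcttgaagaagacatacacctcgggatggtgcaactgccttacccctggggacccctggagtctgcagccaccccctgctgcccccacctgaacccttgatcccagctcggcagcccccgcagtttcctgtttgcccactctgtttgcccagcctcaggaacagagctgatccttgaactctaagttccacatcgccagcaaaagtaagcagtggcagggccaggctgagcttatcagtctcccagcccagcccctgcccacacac
The Apob window held GTCCAAAG on the opposite strand from position -99 and TATAAA from position -60, counted back from the annotated start, while the Apoa1 window held none of these letters. A match is a description of the sequence and no measure of binding.

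Across the members, a single gene, Apob, was called lower in RLSC than in MMH-D3 and none was called higher. At an unadjusted p under 0.05, 2 of the 5 genes tested were lower (Apob and Apoa1) and 0 higher. Over all genes tested 7.1% were lower and 5.27% higher at this unadjusted threshold. Of the 9 genes, 5 passed a filter on low signal (a mean of about 11.7) and were tested with limma across 12598 genes. Calls of lower genes made up 0.516% of all genes tested and calls of higher genes 0.397%. At probe set level 1 of the 10 member probe sets tested (of 17) was called lower, against 0.392% of 27022 probe sets tested. RLSC signals lay below both MMH-D3 arrays for 2 of the 5 genes, Apob and Apoa1, and above both for 1, Apoa2. Over all genes tested these shares were 21.4% and 20.8%. Apoa1 passed the filter only through MMH-D3 array 2, so nothing is read from its part in this count or in the unadjusted one. The median difference over the 5 genes was -0.53 on the log2 scale, and it was 0.0305 over all genes tested. Outside Apob and Apoa1 no member probe set exceeded 49.7 in signal on any array.

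**Figure D1:**
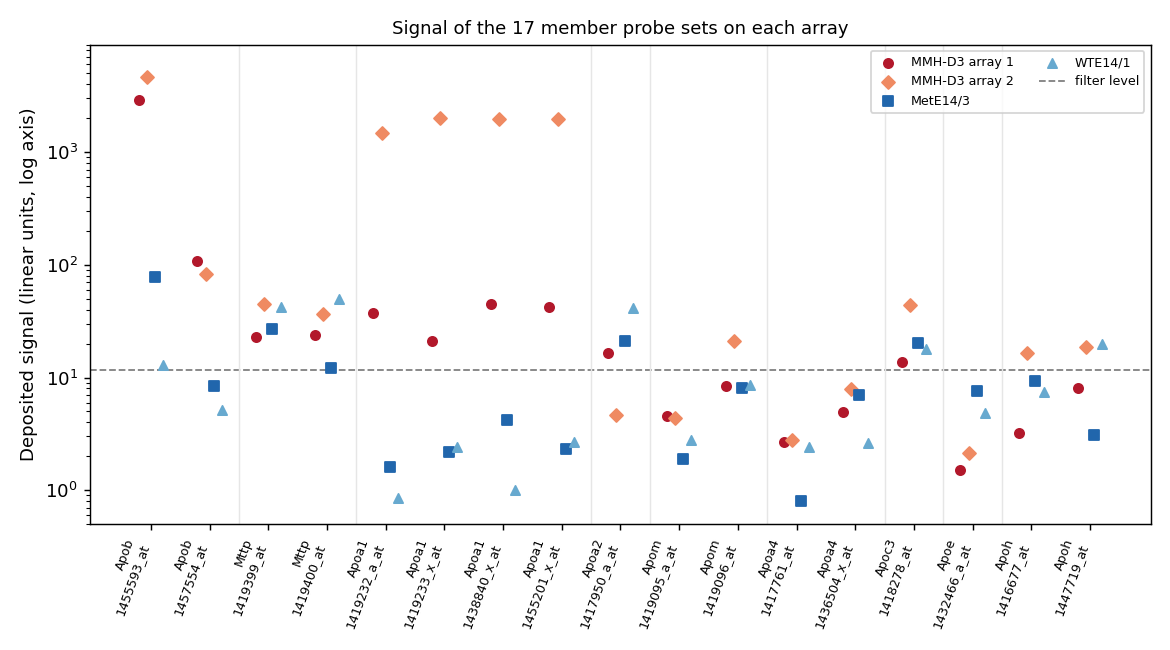
Deposited signal of the 17 member probe sets on the 4 arrays, on a log axis, with 1 point per array and the filter level of about 11.7 as a dashed line. Both Apob probe sets were higher on both MMH-D3 arrays than in either RLSC line, the 4 Apoa1 probe sets were high on MMH-D3 array 2 alone, and all others stayed below 50.

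Apob was the member with the widest separation between the groups. Probe set 1455593_at gave signals of 2879 and 4647 for MMH-D3 (arrays 1 and 2), 77.4 for MetE14/3 and 13.0 for WTE14/1. Both RLSC values lay far below both MMH-D3 values, and the groups did not overlap. On the log2(value + 4) scale after quantile normalization the difference, RLSC minus MMH-D3, was -6.71 (SE 0.85, limma adjusted p = 0.0371). Its size depended on the RLSC line, as MetE14/3 read higher than WTE14/1, which lay close to the filter level. The difference was -5.54 without WTE14/1 and -7.93 without MetE14/3. In bulk RNA, fewer cells that make a transcript and less of it per cell cannot be told apart. The call was lost without a filter (limma adjusted p = 0.0628) and without the intensity trend (0.0566). It was also lost without MMH-D3 array 1 (difference -7.02, limma adjusted p = 0.0995) and without MMH-D3 array 2 (-6.32, 0.318), and it held in the 8 other alternative fits. A fit without an array leaves 1 array in a group, which is then assumed to vary like the other group, and 2 of the 8 fits are of this kind. The difference was -5.04 between MetE14/3 and MMH-D3 array 1 and -8.37 between WTE14/1 and MMH-D3 array 2. The arrays were set in these pairs because their poly-A control signals were alike, as given in the paragraph on the arrays.

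A second Apob probe set, 1457554_at, also separated the groups. It read 108 and 82.4 for MMH-D3, 8.4 in MetE14/3 and 5.16 in WTE14/1. At probe set level the difference was -3.33 (SE 0.54), which missed the threshold (limma adjusted p = 0.0683). Its RLSC signals lay below the filter level, where the pseudocount reduces the fold.

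Mttp, which lipidates apolipoprotein B, had overlapping groups. Probe set 1419399_at read 22.9 and 44.5 for MMH-D3, 27.1 in MetE14/3 and 42.6 in WTE14/1. RLSC values lay between the MMH-D3 values, and the difference of -0.17 (SE 0.52, limma adjusted p = 0.948) had no settled sign, as it was 0.075 with the deposited scaling alone. The other probe set, 1419400_at, read 23.7 and 36.6 in MMH-D3, 12.2 in MetE14/3 and 49.7 in WTE14/1, so the RLSC lines enclosed both MMH-D3 values. Its difference was -0.41 (SE 0.60) and did not pass. These low signals limit what the comparison can show for Mttp, and a failed call does not show equal levels.

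Apoa1, which encodes the main protein of high density lipoprotein, was high on MMH-D3 array 2 alone. The probe set representing the gene, 1438840_x_at, read 1951 there, 44.6 on MMH-D3 array 1, 4.2 in MetE14/3 and 1.01 in WTE14/1. Both RLSC lines lay below both MMH-D3 arrays, but the MMH-D3 arrays themselves differed by 5.04 on the log2 scale. The difference between groups was -5.77 (SE 1.53) and did not pass (limma adjusted p = 0.187). Both RLSC signals lay below the filter level, so its size depends on the pseudocount, being -6.66 with 1 and -4.36 with 16. It was -2.85 between MetE14/3 and MMH-D3 array 1 and -8.69 between WTE14/1 and MMH-D3 array 2. Without MMH-D3 array 2 the gene fell below the filter and had no test.

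The other 3 Apoa1 probe sets gave the same picture. Probe set 1419232_a_at read 37.3 and 1465 for MMH-D3, 1.6 in MetE14/3 and 0.86 in WTE14/1. For 1419233_x_at the MMH-D3 signals were 20.9 and 2002, and for 1455201_x_at they were 41.9 and 1964. In RLSC these last probe sets stayed between 2.2 and 2.66. Probe sets ending in _x_at contain probes that can match other transcripts, but 1419232_a_at, which carries no such mark, showed the same gap between the MMH-D3 arrays (4.86 on the log2 scale). None of the 4 passed the probe set level fit, where their differences ran from -5.77 to -5.36 with adjusted p from 0.202 to 0.335. Of the 5 member genes tested, Apoa1 was the single one at least 4-fold higher on MMH-D3 array 2 than on array 1, against 2.94% of all genes tested. Apoa1 passed the filter only through array 2, so nothing is read from this count.

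The second high density lipoprotein gene, Apoa2, ran the opposite way at low signal. It read 16.4 and 4.69 for MMH-D3, 21.0 in MetE14/3 and 41.3 in WTE14/1. Both RLSC values lay above both MMH-D3 values, although MetE14/3 and MMH-D3 array 1 were close, and the difference of 1.10 (SE 0.71, limma adjusted p = 0.637) did not pass. Apom, the carrier of sphingosine-1-phosphate on high density lipoprotein, was below the filter on both probe sets. Its 1419096_at signals were 8.5 and 21.0 in MMH-D3, 8.1 in MetE14/3 and 8.56 in WTE14/1, and 1419095_a_at read 1.9 to 4.6 across the arrays.

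Among the exchangeable apolipoproteins, Apoc3, an inhibitor of lipoprotein lipase, read 13.7 and 43.7 for MMH-D3, 20.1 in MetE14/3 and 17.8 in WTE14/1. Both RLSC values lay between the MMH-D3 values, and the difference of -0.53 (SE 0.63, limma adjusted p = 0.841) did not pass. It had no settled sign, being 0.29 within the pair of MetE14/3 and MMH-D3 array 1, -1.34 within the other pair and 0.020 without MMH-D3 array 2. Apoe, the ligand of remnant receptors, had 1 probe set, at 1.5 and 2.14 in MMH-D3, 7.6 in MetE14/3 and 4.83 in WTE14/1. These values lay below the filter level on all arrays, so the order of the groups is not a measured difference. Apoa4, an intestinal apolipoprotein in most mammals, stayed between 0.8 and 7.95 on both probe sets. Apoh, the phospholipid-binding beta-2-glycoprotein I, had signals from 3.1 to 20.0 over both of its probe sets, and its groups overlapped on each.

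**Figure D2:**
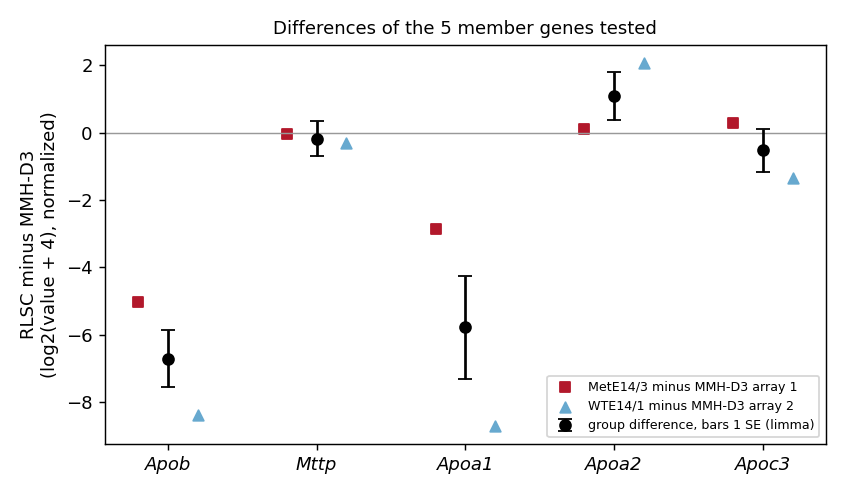
Difference between RLSC and MMH-D3 for the 5 member genes tested, on the normalized log2(value + 4) scale. Black points are the group differences with bars of 1 SE, squares the difference of MetE14/3 from MMH-D3 array 1 and triangles that of WTE14/1 from MMH-D3 array 2. Apob lies at -6.71 and Apoa1 at -5.77, with the wider bar for Apoa1. Mttp lies at -0.17, Apoc3 at -0.53 and Apoa2 at 1.10.

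Several members are neighbours in the genome. In the RefSeq gene order of chromosome 9, Apoa1, Apoc3, Apoa4 and Apoa5 follow each other with no annotated gene between them. From MMH-D3 array 1 to array 2 the log2 value of Apoa1 was higher by 5.04, that of Apoc3 by 1.09 and that of Apoa5, whose product raises lipolysis of triglyceride-rich particles, by 1.87. For Apoa4 the gap was -0.17 and 0.15 on its probe sets, and Apoa4 and Apoa5 lay below the filter. No other gap in this run of genes was as wide as that of Apoa1. On chromosome 7, Apoe lies in one cluster with Apoc1, Apoc4 and Apoc2. On the MMH-D3 arrays Apoc2, the activator of lipoprotein lipase, read 50.7 and 169, against 6.4 in MetE14/3 and 26.1 in WTE14/1. The difference of -2.72 (SE 0.70) missed the threshold (limma adjusted p = 0.177). Apoa5 and Apoc2 were chosen after their values were seen.

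Between the RLSC lines, with 1 array each and no test, Apob was the single one of the 5 tested members at least 4-fold apart, against 5.13% of all genes tested. It was higher in MetE14/3 by 2.50 on the log2 scale. The count fell to 0 with a pseudocount of 16, so it rests on the low WTE14/1 signal of 13.0. The other 4 genes differed between the lines by -0.40 to 0.80, MetE14/3 minus WTE14/1. The lines also differ in the cyto-Met transgene and in their array pair, so line, genotype and pair cannot be told apart.

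The wider lipoprotein pathway was examined through 6 lists, chosen with earlier results of these data known. Among factors of assembly and secretion, 1 of 24 genes tested was lower, none was higher and 23 did not pass, with a median difference of -0.26. At an unadjusted p under 0.05, 4 were lower and 1 higher. Over all genes tested the shares were 7.1% and 5.27%, for this list and those that follow. A high signal in a single group helps a gene past the filter, so nothing is read from the unadjusted counts of these lists. The gene called lower was Tm4sf5, a membrane protein of the tetraspan type, at 547 and 2635 in MMH-D3, 13.7 in MetE14/3 and 6.35 in WTE14/1 (difference -6.55, SE 0.84, limma adjusted p = 0.0371). Its RLSC signals lay near or below the filter level, where the pseudocount reduces the fold. Tm4sf5 passed the filter through MMH-D3, so nothing is read from its part in the count of calls. P4hb, which encodes the protein disulfide isomerase subunit of the triglyceride transfer complex, read 6173 and 6768 in MMH-D3, 5101 in MetE14/3 and 4438 in WTE14/1. For Sar1b, the GTPase of the coat that exports chylomicrons from the endoplasmic reticulum, the signals were 2390 and 2243 in MMH-D3 and 1848 and 1872 in the RLSC lines. Neither gene passed, with differences of -0.37 (SE 0.24) and -0.24 (SE 0.29). Tm6sf2, which promotes lipidation of hepatic lipoproteins, read 93.7 and 285 in MMH-D3, 11.2 in MetE14/3 and 16.7 in WTE14/1 and did not pass (difference -3.43, SE 0.61, limma adjusted p = 0.0740). P4hb, Sar1b and Tm6sf2 were chosen after their values were seen.

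No gene passed in limma for other apolipoproteins, mRNA editing, lipases or transcription factors. Over 6 other apolipoprotein genes and their companions the median was -0.83, with 2 lower and 0 higher at an unadjusted p under 0.05. Clusterin (Clu), also called apolipoprotein J, read 7992 and 10600 in MMH-D3, 8867 in MetE14/3 and 2719 in WTE14/1 (difference -0.76, SE 0.57), so MetE14/3 lay between the MMH-D3 arrays. The paraoxonase gene Pon3 read 200 and 319 in MMH-D3 against 1.1 and 25.4 in the RLSC lines, without passing (difference -4.59, SE 0.80, limma adjusted p = 0.0695). For the editing of apolipoprotein B mRNA, the median of 4 genes was -0.31, with 1 lower and 0 higher at the unadjusted threshold. Syncrip, an RNA-binding component of the editing complex, differed by 0.54 (SE 0.34) and Rbm47, an RNA-binding cofactor, by -2.61 (SE 0.68). Lipases and remodelling factors had a median of -0.31 over 13 genes, with 2 lower and 4 higher at the unadjusted threshold. Lipa, the lysosomal acid lipase, had a difference of 0.14 (SE 0.51) and the protease gene Furin one of -0.58 (SE 0.43).

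Receptors and adaptors had a median of 0.034 over 14 genes, of which 1 was lower, none higher and 13 did not pass. At the unadjusted threshold 3 were lower and 0 higher. The lower gene was Lsr, the lipolysis-stimulated lipoprotein receptor, which is also a component of tricellular junctions. It read 1867 and 1512 in MMH-D3, 169 in MetE14/3 and 235 in WTE14/1 (difference -3.07, SE 0.39, limma adjusted p = 0.0371). Transcription factors of apolipoprotein genes had a median of -0.90 over 26 genes, the lowest of the 6 lists. Of the 26, 13 lay below both MMH-D3 arrays and 2 above both, against 21.4% and 20.8% of all genes tested. At the unadjusted threshold 8 of the 26 were lower and 1 higher, against 7.1% and 5.27% of all genes tested. Some of these genes passed the filter through MMH-D3, such as Nr1h3, at 53.8 and 69.1 in MMH-D3, 14.6 in MetE14/3 and 4.30 in WTE14/1. Nothing is therefore read from these counts, and Nr1h3 was chosen after its values were seen. Cebpb differed by -1.92 (SE 0.53) and Foxa2 by -1.81 (SE 0.58). Hnf4a, whose protein binds the GTCCAAAG type of site, read 1049 and 1687 in MMH-D3, 205 in MetE14/3 and 6.76 in WTE14/1. The difference was -4.90 (SE 1.35) without a call (limma adjusted p = 0.202), and Hnf4a was chosen after its values were seen.

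**Figure D3:**
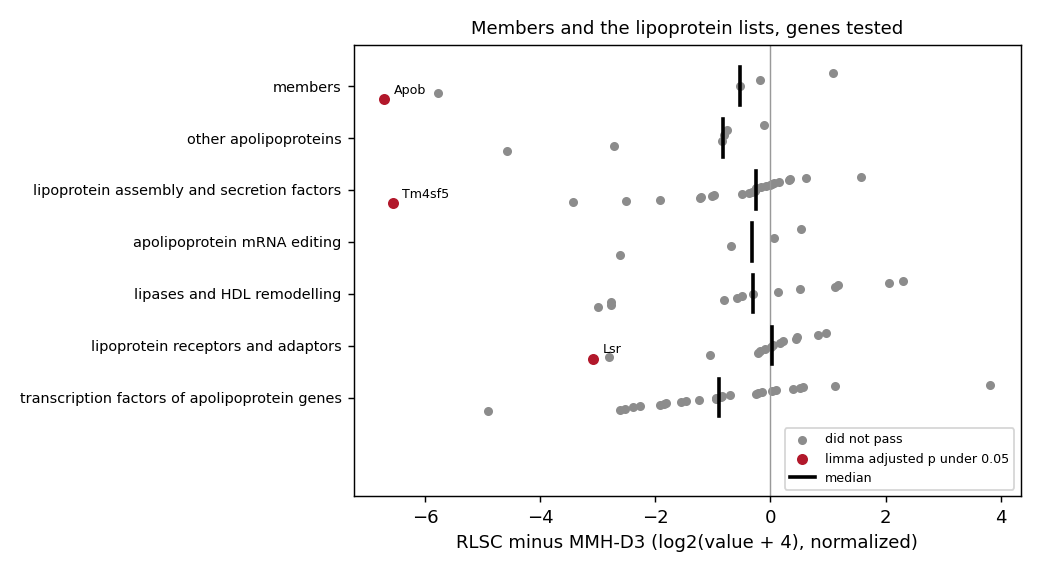
Differences between RLSC and MMH-D3 for the member genes tested and for the tested genes of the 6 lipoprotein lists, on the normalized log2(value + 4) scale. Each point is a gene, red points passed (Apob, Tm4sf5 and Lsr, all lower in RLSC), and black bars are list medians, from -0.90 for transcription factors to 0.034 for receptors.

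By Euclidean distance over the 4 arrays on the log2(value + 4) scale, the non-member genes nearest to Apob were Ddc, Akr1c19, Frmd4b, Wfdc2 and Rbp4, at distances of 1.36 to 1.67. Ddc, encoding aromatic amino acid decarboxylase, read 2028 and 3469 in MMH-D3, 103 in MetE14/3 and 3.28 in WTE14/1. For Akr1c19, an aldo-keto reductase, the signals were 1180 and 2507 in MMH-D3 and 56.6 and 15.2 in the RLSC lines. Frmd4b read 2760 and 2623 against 206 and 16.9, and Wfdc2, a secreted protease inhibitor, 5200 and 3595 against 26 and 12.4. For Rbp4, the plasma carrier of retinol, the signals were 4307 and 5702 in MMH-D3, 180 in MetE14/3 and 31.2 in WTE14/1. These genes were picked for this likeness, so their order of arrays is no result. Nearest to Apoa1, a search added after its values were seen, were Mcpt2, Cpm, C9, Sult1d1 and Fut2, at 1.38 to 1.71. Each of these read at least 723 on MMH-D3 array 2 and at most 128 on array 1. They were picked for their likeness to Apoa1, so this gap is no result either.

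The arrays and the cell type labels were checked against control probe sets and marker lists. Median signals ran from 16.9 to 28.0, and the trimmed mean was 200.001 on each array. MMH-D3 array 1 and MetE14/3 shared high signals of the 24 poly-A controls, by a median of 9.46-fold over the other arrays, while for 18 hybridization controls this ratio was 0.880. The part of this in the results was not tested, beyond the differences within pairs given above and the fit with the pairs as a block given below. Of 18 hepatocyte marker genes named here, 13 stayed under 50 on all arrays, among them the urea cycle gene Cps1, and 8 were tested. Afp, the fetal liver protein, was called lower in RLSC and none of the 8 higher (4 lower and 0 higher at the unadjusted threshold). The 4 lower genes were Afp, Hpx, Alb and Ttr. Hpx read 195 and 355 in MMH-D3, 0.7 in MetE14/3 and 21.6 in WTE14/1, and was chosen after its values were seen. Hpx, Alb and Ttr were low in RLSC and passed the filter through MMH-D3. For this and the other marker lists, the unadjusted shares over all genes tested were 7.1% lower and 5.27% higher. A high signal in a single group helps a gene past the filter. Nothing is therefore read from the unadjusted counts of the marker lists, or from their counts below or above both MMH-D3 arrays. Afp read 1456 and 923 in MMH-D3 and 75.8 and 134 in the RLSC lines (difference -3.50, SE 0.47, limma adjusted p = 0.0391). Albumin (Alb) read 44.7 and 440 for MMH-D3, 1.7 in MetE14/3 and 2.91 in WTE14/1, and transthyretin (Ttr) 19.8 and 144 against 4.6 and 8.98. Cyp7a1 (0.379, SE 0.651), Cyp2e1 (0.466, SE 0.615) and Pck1 (0.315, SE 0.587) ran towards RLSC without passing, at signals under 50 on all arrays. They were chosen after their values were seen. Like Apoa1, 2 of the 8 hepatocyte genes (Alb and Ttr) were at least 4-fold higher on MMH-D3 array 2 than on array 1. So were 2 of 8 enterocyte genes (Fabp1 and Fabp2), 2 of 24 assembly factors and 2 of 26 transcription factors. The editing list held 1 of 4 and the yolk sac list 1 of 10, again Ttr, and the other lists none. Over all genes tested the share was 2.94%. A high signal on array 2 also helps a gene past the filter, so nothing is read from these counts. Cps1 was chosen after its values were seen.

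Enterocytes also make apolipoproteins B, A-I and A-IV. The summed signal of 14 enterocyte genes was 16470 and 26870 on the MMH-D3 arrays, 5595 in MetE14/3 and 420 in WTE14/1, most of it in MMH-D3 from Lgals4 and Cdh17. The macrophage, lipase, receptor and transcription factor lists had the same order of arrays in their sums. Of 8 enterocyte genes tested, 7 lay below both MMH-D3 arrays and 0 above both, against 21.4% and 20.8% of all genes tested. None of the 8 passed in limma (4 lower and 0 higher at the unadjusted threshold), with a median of -3.52. Fabp2, the intestinal fatty acid binding protein, read 62.6 and 827 in MMH-D3, 16.4 in MetE14/3 and 1.71 in WTE14/1, and was, with Fabp1, chosen after its values were seen. Of the 14 genes, 5 stayed under 50 on all arrays. Yolk sac endoderm genes summed to 7903 and 8975 in MMH-D3 and to 799 and 928 in RLSC, with 2 of 10 tested called lower, Rbp4 and Afp, and none higher (6 lower and 0 higher at the unadjusted threshold). Afp and Ttr are also in the hepatocyte list, so the call of Afp counts in both lists and does not tell these cell types apart. Rbp4 differed by -6.07 (SE 0.86, limma adjusted p = 0.0432) and gave most of the MMH-D3 sum. Of the 13 yolk sac genes, 5 stayed under 50 on all arrays. Of the 10 tested, 6 lay below both MMH-D3 arrays and 0 above both, against 21.4% and 20.8% of all genes tested. Cubn (0.44, SE 0.57) and Gata4 (0.52, SE 0.61) ran towards RLSC without passing and were chosen after their values were seen. Macrophage genes summed to 1961 and 3877 in MMH-D3 and to 546 and 478 in RLSC, most of it from Cd14, a lipopolysaccharide co-receptor, at 1798 and 3594 in MMH-D3 and 365 and 209 in RLSC. Of 5 tested none passed in limma (1 lower and 0 higher at the unadjusted threshold). Of the 17 macrophage genes, 15 stayed under 50 on all arrays. Endothelial genes summed to at most 193 on any array, the highest member being Eng at 23.5 to 74.6, and none of 4 passed or fell under the unadjusted threshold in limma. Stellate and mesenchymal genes summed to 14140 and 14410 in MMH-D3 and to 15860 and 28540 in RLSC, the highest member being vimentin (Vim), at 13470 to 17250. Of the 15 genes, 10 stayed under 50 on all arrays. None of 9 tested was called lower, and 3 were higher and 0 lower at the unadjusted threshold. Des (-0.83, SE 0.66) and Pdgfra (-0.79, SE 0.62) ran lower in RLSC without passing, and were chosen after their values were seen. The smooth muscle genes Acta2 and Tagln were the 2 called higher, by 6.20 (SE 0.80) and 6.70 (SE 0.93) with limma adjusted p of 0.0372 and 0.0402, and were chosen after their values were seen. Acta2 read 47.5 and 38.8 in MMH-D3, 1638 in MetE14/3 and 8962 in WTE14/1. For Tagln the signals were 8.8 and 1.23 in MMH-D3, 398 in MetE14/3 and 1989 in WTE14/1. Its MMH-D3 signals lay below the filter level, where the pseudocount reduces the fold. Tagln passed the filter through RLSC, so nothing is read from its part in the count of calls. The part of any of these cells in the results was not tested.

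**Figure D4:**
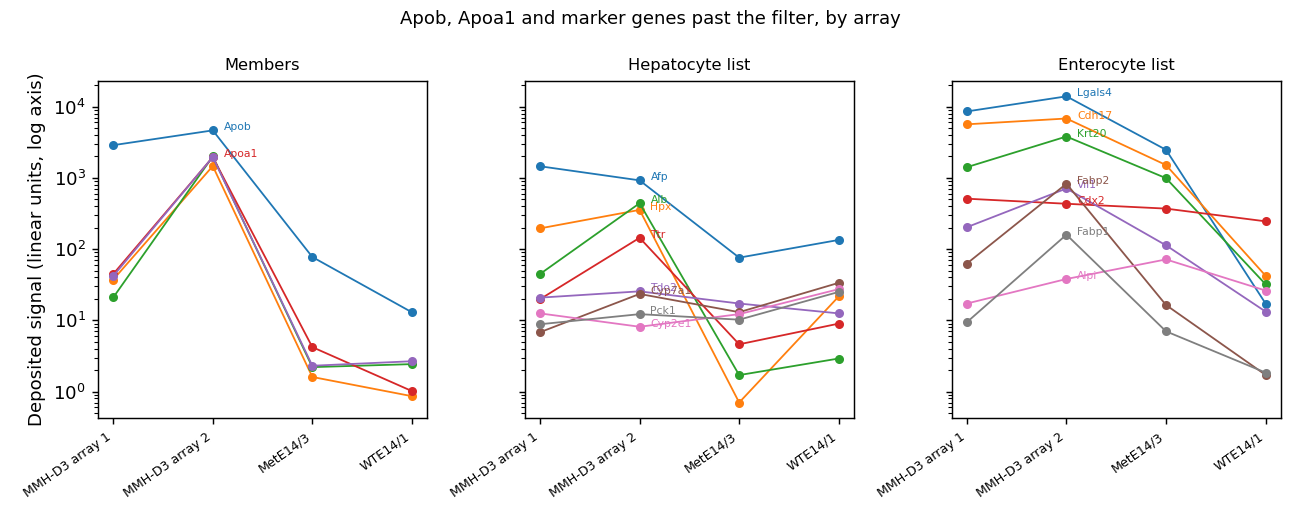
Deposited signal by array, on a log axis, of Apob (1455593_at) and the 4 Apoa1 probe sets, of the hepatocyte list genes and of the enterocyte list genes that passed the filter. Lines join the values of 1 probe set. Apoa1, Alb, Ttr, Fabp1 and Fabp2 were highest on MMH-D3 array 2, and Apob was high on both MMH-D3 arrays.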

How the data were processed

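RNA of 4 samples was measured on Affymetrix Mouse430_2 arrays from 5 μg of total RNA and 15 μg of fragmented cRNA, per the labels. The deposited values are probe set signals, a linear intensity, made by the authors with GCOS per the submitters' processing notes; version and settings: not given in the sources used here. The trimmed mean, without the lowest and highest 2%, was equal on all arrays. The number of arrays limits the precision.

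Names came from the platform annotation (34945 probe sets with 1 symbol, 932 with several, 9160 unnamed here, without 64 controls). Of the first, 34741 matched a RefSeq gene table by Entrez identifier and 0 symbols changed.

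Values were log2(value + 4), quantile normalized because array medians differed by 0.614 on the log2 scale, over the set limit of 0.25. A probe set had to reach the 40th percentile of means, and the one of highest mean stood for its gene. RLSC and MMH-D3 were compared with limma 3.58.1 in R 4.3.3 (lmFit, eBayes with intensity trend, two-sided, Benjamini-Hochberg at 0.05 over all genes or probe sets), with 2 residual and 4.24 prior degrees of freedom. The same script was tested on simulated data. All values in text are deposited signals unless a log2 difference is named. All members are described. Of each pathway list, up to 3 passing genes, or the 2 with the highest mean, were named, of each marker list the member with the highest signal, and Alb, Afp and Ttr, and the 5 non-member genes nearest to Apob. Members and lists were chosen with earlier results of these data known.

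Alternatives were pseudocounts of 1 and 16, no filter or a 60th percentile filter, deposited scaling only, no intensity trend, the median of probe sets, a block for the array pairs, and leaving out each array.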

Additional observations from a re-analysis of the deposited data

How the results depend on the processing

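Over all alternatives Apob kept its direction, from -8.37 to -5.02, and Apoa1 kept its own, from -8.69 to -2.85. Apob passed in 8 of 12 fits and Apoa1 in none of 11 (adjusted p from 0.0108 to 0.318 and from 0.0730 to 0.401). The count of member genes called lower was 0, not 1, without a filter and without the intensity trend, and ran from 0 to 1 when arrays were left out. At probe set level the count of 1 was 0 with a pseudocount of 1, without a filter and without the intensity trend, and ran from 0 to 1 when arrays were left out. Across all genes, 115 calls became 9 without a filter, where 18193 genes were tested, and 0 to 206 when arrays were left out (0 without either MMH-D3 array, 27 without WTE14/1, 206 without MetE14/3). With the array pairs as a replicate block there were 164 calls and Apob passed (limma adjusted p = 0.0306); the block changed no call of a member. Mttp turned to 0.075 with the deposited scaling alone and ran from -0.40 to 0.23 when arrays were left out, and Apoc3 ran from -1.09 to 0.020. The count of members 4-fold apart between the RLSC lines was 0 with a pseudocount of 16. The cause of these changes was not tested. Low signal limits every member, Apob and Apoa1 in the RLSC lines included.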

Other observations

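The enterocyte list differed between the RLSC lines in the values of single genes. Lgals4, a galectin of intestinal epithelium, read 2481 in MetE14/3 and 17.2 in WTE14/1, against 8578 and 13970 on the MMH-D3 arrays. Cdh17, the liver-intestine cadherin, read 1515 in MetE14/3, 42.3 in WTE14/1 and 5654 and 6823 in MMH-D3. Krt20, an intestinal keratin, read 991 and 32.1 in the RLSC lines. The intestinal transcription factor gene Cdx2 was measured in all lines, at 510 and 433 in MMH-D3, 370 in MetE14/3 and 245 in WTE14/1. At least 4-fold differences between the lines were seen for 5 of the 8 enterocyte genes tested, against 5.13% of all genes tested. They were not particular to this list, with 4 of 9 stellate and mesenchymal genes and 5 of 26 transcription factors. These genes beyond Lgals4 were chosen after their values were seen. Each line had 1 array, and line, cyto-Met genotype and array pair cannot be told apart.

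Of the transcription factor list, Foxa1 had the largest difference towards RLSC, with signals of 568 (MetE14/3), 67.5 (WTE14/1) and 2.3 and 21.9 (MMH-D3; difference 3.82, SE 1.16, limma adjusted p = 0.242). It did not pass and was chosen after its values were seen.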
